A study of Homo sapiens with 4 samples.

Results

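TYR, TYRP1 and DCT are the genes of the tyrosinase family, and TBX3 binding around them was examined in 501mel cells, an established human melanoma line. The regions described were all deposited peaks whose annotated nearest gene was TYR, TYRP1 or DCT, at any distance. They numbered 19 of 32479 peaks in replicate 1 and 26 of 40494 peaks in replicate 2. Binding was measured by ChIP-seq, in which DNA crosslinked to a protein is recovered with an antibody and sequenced. The cells carried TBX3-3xHA, that is TBX3 fused to the HA peptide, and the 2 ChIP samples were precipitated with the anti-HA antibody 12CA5. The other 2 samples were input chromatin from the same line, not analysed here. All samples were grown alike, and the labels give no treatment, no second condition and no account of how or at what level the tagged TBX3 was expressed. The labels also do not say whether the replicates were separate cultures, so agreement between them may be technical. No expression was measured, so the melanocytic character of the line could not be checked.

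Melanin is made in melanosomes from tyrosine. TYR (tyrosinase) catalyses the first and rate-limiting steps, the hydroxylation of tyrosine to dopa and its oxidation to dopaquinone, which are needed for brown-black eumelanin and red-yellow pheomelanin alike. TYRP1 and DCT are placed later, on the eumelanin branch. DCT (dopachrome tautomerase) converts dopachrome to its carboxylated indole. TYRP1 has been described as acting on that indole and as stabilising tyrosinase. The promoters of these genes are known for the M-box, an E-box with flanking bases that is bound by MITF, the master transcription factor of melanocytes. TBX3 is a T-box transcription factor, generally described as a repressor, and T-box proteins recognise a half-site with the core GTGTGA.

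A peak was known by its summit, a single base, and by the score that the authors deposited with it. Because the scale of the score is not stated, each score is accompanied by its percentile, the percentage of peaks in the same list that scored lower. Summits of the 2 lists within 200 bp, each the closest to the other, were taken as a shared region. The 3 genes together had 17 shared regions, 7 at TYR, 3 at TYRP1 and 7 at DCT, and at each gene the highest-scoring shared region lay at a promoter.

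The promoter windows of the 3 genes are shown because a shared region fell inside one window of every gene. They are RefSeq sequences of GRCh38.p14, read 5′ to 3′ on the strand of the gene from 250 bases before to 50 bases from the start site on. The capitals mark TCATGTGCT or its reverse complement. DCT has a window at each of its annotated starts, called inner (nearer the coding sequence) and outer here. The windows are chr11:89177625-89177924 on the plus strand for TYR, chr9:12693135-12693434 on the plus strand for TYRP1, chr13:94479633-94479932 on the minus strand for the inner DCT start and chr13:94549357-94549656 on the minus strand for the outer one.
TYR: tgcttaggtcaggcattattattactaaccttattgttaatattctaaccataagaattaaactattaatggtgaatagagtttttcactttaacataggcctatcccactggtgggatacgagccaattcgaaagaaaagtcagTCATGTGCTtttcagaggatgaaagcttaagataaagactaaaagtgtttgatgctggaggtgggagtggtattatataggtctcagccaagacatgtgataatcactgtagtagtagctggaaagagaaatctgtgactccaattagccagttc
TYRP1: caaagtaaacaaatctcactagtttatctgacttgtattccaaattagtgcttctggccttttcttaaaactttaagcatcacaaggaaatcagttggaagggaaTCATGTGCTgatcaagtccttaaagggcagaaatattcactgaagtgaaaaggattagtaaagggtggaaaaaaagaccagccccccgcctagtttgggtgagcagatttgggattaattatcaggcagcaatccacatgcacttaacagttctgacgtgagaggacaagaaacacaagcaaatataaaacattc
DCT inner: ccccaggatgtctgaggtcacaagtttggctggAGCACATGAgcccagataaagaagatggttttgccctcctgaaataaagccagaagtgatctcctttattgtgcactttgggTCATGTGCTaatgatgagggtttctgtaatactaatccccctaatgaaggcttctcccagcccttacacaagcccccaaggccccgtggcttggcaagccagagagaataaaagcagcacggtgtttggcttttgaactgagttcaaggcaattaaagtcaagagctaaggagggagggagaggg
DCT outer: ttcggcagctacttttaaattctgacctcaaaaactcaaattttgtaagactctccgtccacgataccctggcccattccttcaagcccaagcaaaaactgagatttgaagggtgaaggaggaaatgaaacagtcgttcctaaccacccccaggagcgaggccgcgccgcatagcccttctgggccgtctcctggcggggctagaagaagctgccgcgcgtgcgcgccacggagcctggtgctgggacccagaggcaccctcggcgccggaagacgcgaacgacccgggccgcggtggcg

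Of the 4 windows, those of TYR, TYRP1 and the inner DCT start held a summit of both replicates, and the outer DCT window held none in either list. Among all 35116 RefSeq promoter windows, of 27305 genes, 372 held a shared region (1.06%). Counting the first transcribed base as 0, the TYR summits lay at -27 in replicate 1 and -1 in replicate 2. The TYRP1 summits lay at -31 and -65. The DCT summits lay farther upstream, at -160 and -211 from the inner start. The 3 bound windows had 2 CpG dinucleotides each and a GC content of 37% (TYR), 39% (TYRP1) and 49% (inner DCT). The outer DCT window had 26 CpG dinucleotides and a GC content of 60%. No such values are given for the windows of other genes, so a link with binding cannot be read from these.

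Letters of known binding motifs were looked for on both strands. The T-box core GTGTGA, and so its longer forms GGTGTGA and AGGTGTGA, was found in none of the 4 windows. GTGTGA was present in 12.0% of all windows, GGTGTGA in 3.45% and AGGTGTGA in 0.980%. Among the 372 windows with a shared region the GTGTGA share was 21.8% (95% Wilson interval 17.9% to 26.2%). There the GGTGTGA share was 7.26% (5.04% to 10.4%) and the AGGTGTGA share 2.69% (1.47% to 4.88%). The absence of these letters says nothing about sites outside the window or with other letters.

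The general E-box CANNTG, which 68.7% of all windows hold, was present in the 3 bound windows and absent from the outer DCT window. CATGTG, a form of the E-box, was present in 11.1% of all windows and in 20.2% of those with a shared region, at any number of positions. Windows that hold it at 2 positions were not counted apart. The bound windows each held CATGTG at 2 positions. In TYR these began at -104 and -12, in TYRP1 at -144 and -11, and at the inner DCT start at -215 and -134. CACGTG, the other form that MITF is known to bind, was in none of them. It was in 7.26% of all windows and in 18.5% of those with a shared region. The M-box core TCATGTG, which contains CATGTG, was in each of the 3 bound windows, in 2.92% of all windows and in 8.33% of those with a shared region (31 of 372, interval 5.93% to 11.6%).

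The longest run of letters common to the 3 bound windows, in either orientation, was the 9-letter TCATGTGCT, which extends the M-box core by 2 bases. It began at -105 in TYR and at -145 in TYRP1, and it occurred at 2 places at the inner DCT start, from -135 to -127 on the gene's strand and from -217 to -209 on the opposite strand. Because this word was derived from these windows, its presence in them is no finding. In all, 76 windows (0.216%) held it, and 8 of them had a shared region, those of TYR, TYRP1, DCT, GPNMB, GPR143, BCL2L13, MR1 and LINC00426. Leaving the 3 enzymes out, 5 of 73 such windows had one (6.85%, interval 2.96% to 15.1%), beside 1.06% of windows in general. GPNMB and GPR143 also encode melanosomal proteins.

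The summits lay at differing distances from the M-box core. At TYR they were 75 bp (replicate 1) and 101 bp (replicate 2) from its centre, and at TYRP1 111 bp and 77 bp, in both cases towards the start site. At the inner DCT start the replicate 1 summit lay between the 2 copies, 28 bp from the nearest centre. The replicate 2 summit lay within the upstream copy, 1 bp from its centre. Both summits were on the start side of the upstream copy, but upstream of the other copy. In the 31 windows with a shared region and this core, the median distance was 44 bp in replicate 1 (quartiles 29.5 and 70 bp) and 38 bp in replicate 2 (14 and 75.5 bp). The TYR and TYRP1 summits were thus farther from the core than the upper quartile. From the other CATGTG, near the start, the distances were 17.5 and 8.5 bp at TYR and 22.5 and 56.5 bp at TYRP1. Distances to CATGTG in other bound windows are not given, so these have no background.

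**Figure D1:**
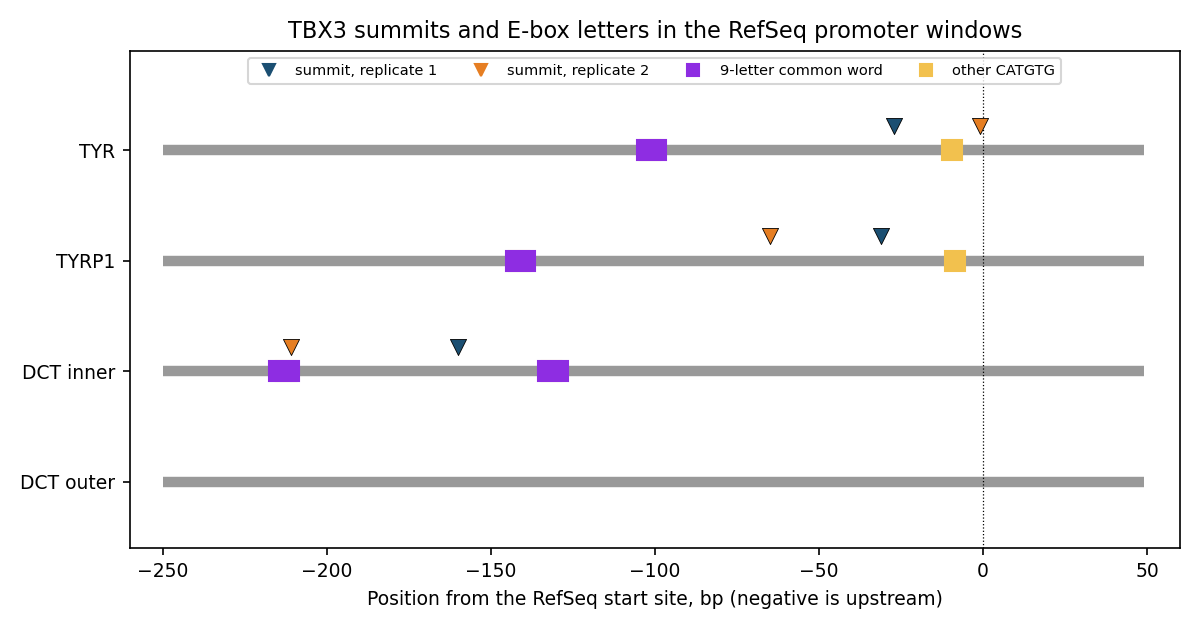
TBX3 summits of both replicates (triangles) and CATGTG letters (boxes) in the RefSeq promoter windows of TYR, TYRP1 and DCT, with position in bp from the start site on the x axis. Purple boxes are the 9-letter word common to the bound windows and yellow boxes are other CATGTG; the summits lie between -65 and -1 at TYR and TYRP1, at -160 and -211 at the inner DCT start, and the outer DCT window has neither boxes nor summits.

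TYR spans 89177875 to 89295759 on chromosome 11 (117885 bp, plus strand). Its promoter region scored 71.4 in replicate 1, with the summit at 89177848, and 119.5 in replicate 2, with the summit at 89177874. The percentiles were 90.1 and 93.2 (mean 91.6 ± 2.20, SD, n = 2), the highest of the 7 shared TYR regions in both lists. A second strong region lay in intergenic sequence 9204 bp upstream by the replicate 1 summit, at 89168668 and 89168675, within an LTR33 element. It scored 62.8 and 112, with percentiles of 88.5 and 92.6 (mean 90.5 ± 2.95, SD, n = 2), close to the promoter itself. Another, in intron 1 of 4 with summits at 89182895 and 89182946, scored 40.6 and 44.2, and its percentile was 81.4 in replicate 1 and 79.4 in replicate 2. It was the single shared region of the 17 whose percentile was not higher in replicate 2.

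The other 4 shared TYR regions had lower scores than these in replicate 1, and their percentiles differed more between the replicates. The region 1883 bp upstream, at 89175989 and 89176007, scored 11.6 (percentile 45.6) in replicate 1 and 48.8 (81.1) in replicate 2. The region 2844 bp upstream, at 89175028 and 89174992 in an L2b element, scored 8.54 (33.2) and 30.0 (71.1). At 7817 bp upstream, summits at 89170055 and 89170078 scored 6.43 (21.5) and 10.6 (40.0). These 3 sites lie between the strong upstream region and the promoter, and each was below the 50th percentile in replicate 1, whereas those at 1883 and 2844 bp were above the 70th in replicate 2. The last, in intron 1 at 89186452 and 89186566 within a MER45C element, scored 4.50 (9.19) and 12.2 (45.0), and its summits were 114 bp apart, the widest gap of the 17 pairs.

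All 7 shared TYR regions thus fell within 10 kb of the start, 5 upstream and 2 downstream, over 17784 bp. Beyond intron 1 the long gene body had no shared region. Of the TYR peaks, 1 of 8 in replicate 1 and 2 of 9 in replicate 2 had no partner. In replicate 1 it lay in intron 2 of 4 at 89204038 and scored 2.80. In replicate 2 the unpaired peaks were in intron 1 at 89181232 (score 5.55) and in intron 3 of 4 at 89235193 (13.1).

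TYRP1 spans 12693385 to 12710285 on chromosome 9 (16901 bp, plus strand), and no summit of either list fell within this span. Its region at the promoter, just upstream, had summits at 12693354 and 12693320. It scored 30.0 in replicate 1 and 65.7 in replicate 2, with percentiles of 75.0 and 86.0 (mean 80.5 ± 7.78, SD, n = 2). In both replicates this was below the promoter regions of TYR and DCT. TYRP1 was also the member with the fewest recurrent sites, since its promoter was the single shared region within 10 kb.

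The other shared regions assigned to TYRP1 were far away, in the gene-poor sequence upstream. Summits at 12065198 and 12065248, 628188 bp upstream, scored 17.5 (percentile 60.0) and 34.3 (74.1). Summits at 12162344 and 12162364, 531042 bp upstream, scored 7.12 (25.7) and 30.0 (71.1), the largest percentile difference among the 17 regions. At such distances the annotation names TYRP1 only as the nearest start, and the lists do not show contact with it. The remaining 5 of the 8 TYRP1 peaks in replicate 2 had no partner, with scores between 2.58 and 13.1, at 631692, 181490, 80195 and 18159 bp upstream and 25446 bp downstream. The last was within an intron of LURAP1L-AS1, a non-coding gene that overlaps the 3′ part of TYRP1. The count for TYRP1 therefore depended on the library, with 3 peaks in replicate 1 and 8 in replicate 2.

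DCT spans 94436811 to 94549406 on chromosome 13 (112596 bp, minus strand), and its 2 starts are 69724 bp apart. The region at the inner start, with summits at 94479842 and 94479893, was the highest-scoring of all 3 genes in both lists. It scored 80.4 in replicate 1 and 168.4 in replicate 2, with percentiles of 91.5 and 95.8 (mean 93.7 ± 3.05, SD, n = 2). Next was a region 2977 bp downstream in intron 1 of 7, at 94476705 and 94476748, which scored 66.8 (89.3) and 111 (92.5). It lay within an AluSq element. Alu elements occur in very many similar copies, and how reads that map to several places were handled is not given in the sources used here.

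Around the inner start 2 further shared regions completed a group of 4 within 5 kb. Summits at 94480987 and 94481008, 1305 bp upstream in an MLT1D element, scored 14.9 (percentile 54.7) and 29.0 (70.3). Summits at 94478329 and 94478353, 1353 bp downstream in an AluSx1 element, scored 5.76 (17.3) and 6.91 (23.7), the lowest mean percentile among the 17. By mean percentile the strongest and the weakest of the 17 regions thus both lay close to this start.

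The other 3 shared DCT regions belonged to the upstream part of the locus. In intron 1 of 9 of the longer transcript, both lists had their summit at 94516711, in an MSTC element, with scores of 23.1 (68.1) and 55.9 (83.5). Nearer the outer start, summits at 94543172 and 94543255 scored 4.50 (9.19) and 12.2 (45.0), and beyond it summits at 94556264 and 94556235 scored 6.43 (21.5) and 12.2 (45.0). The summit nearest to the outer start itself was 6234 bp away in replicate 1 and 4541 bp away in replicate 2. The latter peak, at 94553947 with a score of 14.6, had no partner. Also without one were 94514467 in replicate 1 (3.34) and 94566176 in replicate 2 (3.11).

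**Figure D2:**
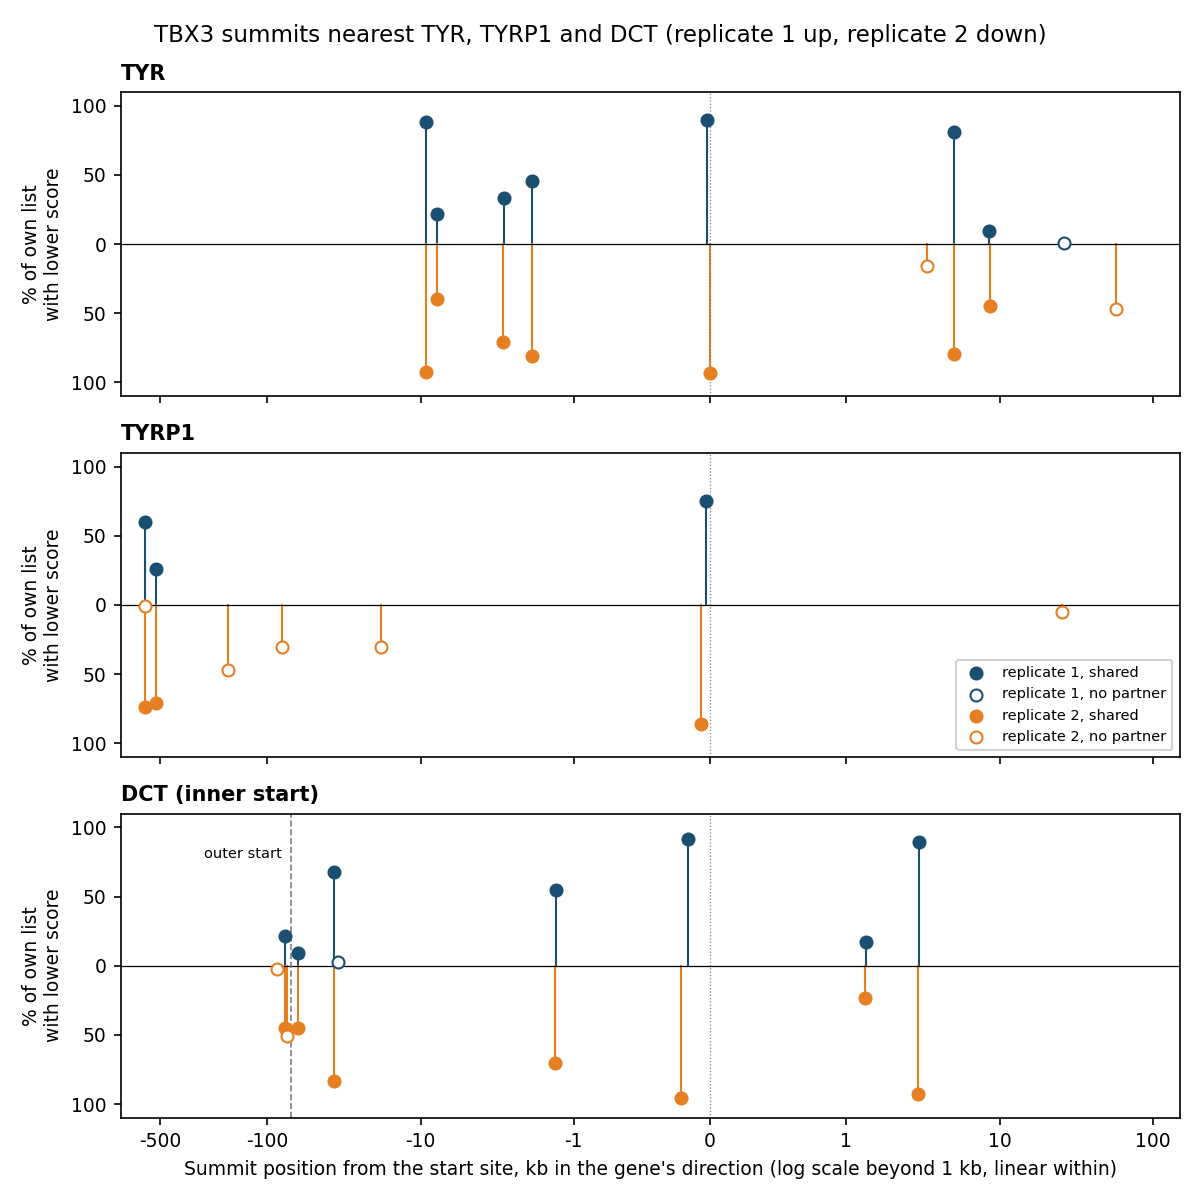
Position of each summit assigned to TYR, TYRP1 and DCT in kb from the start site (x axis, logarithmic beyond 1 kb; the dashed line marks the outer DCT start) against the percentage of the same list with a lower score, replicate 1 upwards and replicate 2 downwards. Filled points are shared and open points have no partner; each gene has its tallest shared point beside the start, from 75.0 at TYRP1 in replicate 1 to 95.8 at DCT in replicate 2.

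Recurrence was higher than in the lists as a whole in both replicates, but with so few peaks the intervals were wide. In replicate 1, 17 of 19 peaks had a partner (89.5%, 95% Wilson interval 68.6% to 97.1%, counting error only), beside 69.9% of all peaks. In replicate 2, 17 of 26 had one (65.4%, 46.2% to 80.6%), beside 56.1%. Both intervals include the share of the whole list, so these numbers do not set the 3 loci apart. The distance limit of 200 bp was not near any pair or unpaired peak, because the widest shared gap was 114 bp and the nearest summit to an unpaired peak was 1663 bp away. The median gap was 29 bp, against 28 bp over all 22702 shared regions. In replicate 1, the percentile of the 2 unpaired peaks was at most 2.75, whereas it reached 51.1 among the 9 unpaired peaks of replicate 2.

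The scores of the shared regions were not high for shared regions in general. Their median percentile was 54.7 in replicate 1 and 74.1 in replicate 2, against 63.1 and 70.3 for all shared regions. A percentile of 90 or more was reached by 2 of 17 in replicate 1, beside 14.1% of all shared regions, and by 4 of 17 in replicate 2, beside 17.5%. The order of the regions was alike in the 2 libraries, with a Spearman's rho of 0.929 over the 17 regions, against 0.852 over all. These regions share 2 libraries and are not independent.

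All 17 regions had a higher score in replicate 2, as did 75.0% of all shared regions, and 16 of 17 had a higher percentile there, as did 67.1%. The ratio of the scores, replicate 2 over replicate 1, had a median of 1.96 and ran from 1.09 to 4.22, whereas its median over all shared regions was 1.46. Read depth and enrichment are unknown for both libraries, so their part in this was not tested.

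**Figure D3:**
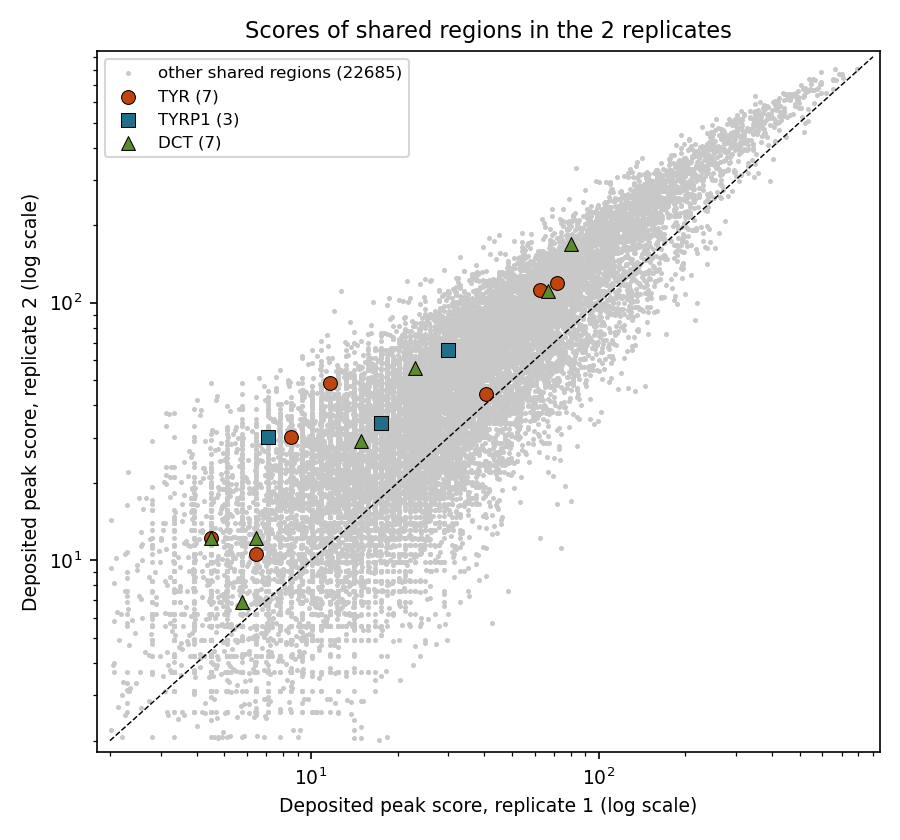
Deposited score of every shared region in replicate 1 (x axis) and replicate 2 (y axis), both logarithmic, with TYR, TYRP1 and DCT regions coloured over the other 22685 in grey. All 17 coloured points lie above the dashed line of equal score, and they spread over most of the grey cloud, from 4.50 to 80.4 in replicate 1.

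The 3 genes differed in the number of shared regions near their starts. Each of the 3 had at least 1 such region at 10 kb or less, beside 10.1% of 19970 protein-coding genes. TYR had 7, a number reached by 3 protein-coding genes (0.015%), the others being MITF and TP53TG3B. DCT had 6, a number reached or passed by 6 genes (0.03%), which also include NEDD4L and SYTL2, while TYRP1 with 1 was like most genes that had any. MITF, TP53TG3B, NEDD4L and SYTL2 are named because their counts were seen to match. TP53TG3B belongs to a family of near-identical copies, so its count is uncertain. The counts use the annotated nearest start, and those of DCT are the sum of 4 at the inner and 2 at the outer start.

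A count of shared regions within 10 kb on either side of a start, whichever gene was nearest, was added after these values were seen. TYR again had 7, and no other of the 35116 RefSeq starts had as many (0.00285%). The inner DCT start had 4, which 31 starts reached (0.0883%), the outer DCT start had 2 (2.15%) and TYRP1 had 1 (13.1%). In wider windows these numbers were more common. Within 250 kb on either side TYR still had 7, which 16.3% of starts reached, the inner DCT start had 8 (11.8%) and TYRP1 had 2 (71.5%). The TYR cluster included weak peaks, and with peaks at or above the median score of each list it held 3 regions, and TYR was then among 46 starts with at least as many. In replicate 1 alone, where TYR had 7 peaks, it was among 6 such starts, and in replicate 2 alone, where it had 8, among 4. With summits paired within 50 bp TYR had 5 regions and was among 3 such starts.

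**Figure D4:**
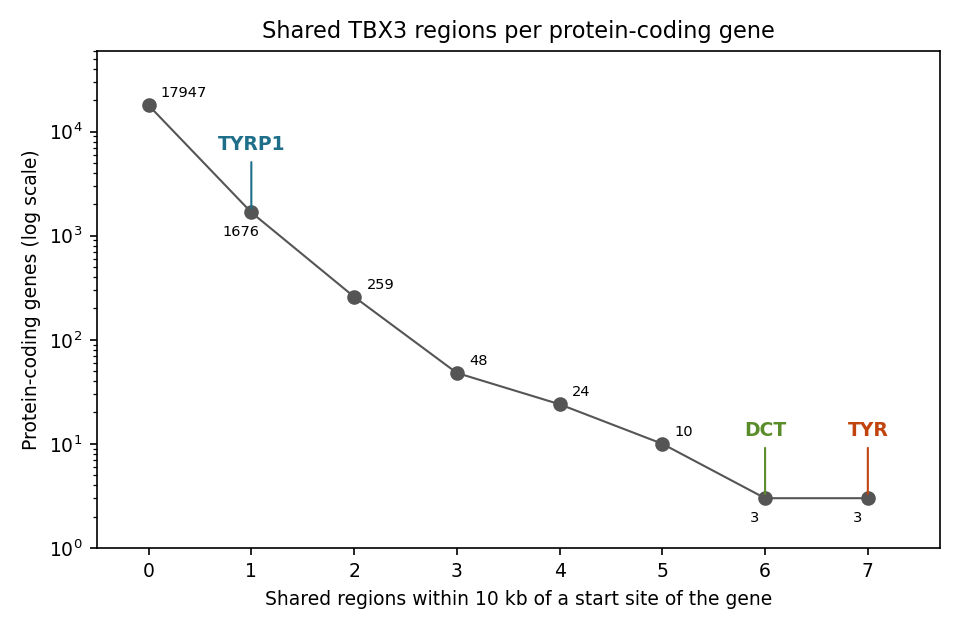
Number of protein-coding genes (y axis, logarithmic) with 0 to 7 shared regions within 10 kb of a start site (x axis), with TYR, TYRP1 and DCT marked. Of the genes, 17947 had none and 1676 had 1, like TYRP1, whereas 3 had 6, DCT among them, and 3 had 7, TYR among them.

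Repeats held 7 of the 17 shared regions by the replicate 1 annotation and 9 by that of replicate 2, beside 41.7% and 41.8% of all shared regions. The lists disagreed at the region 7817 bp upstream of TYR, where MER39 was named in replicate 2 only, and at the one beyond the outer DCT start, where UCON93 was. The 3 promoter regions were outside repeats, but the second-strongest regions of TYR (LTR33) and DCT (AluSq) were inside them.

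Other genes of melanin production were taken from a list of 30, which held no tyrosinase family member. Of these, 18 had a shared region within 10 kb (60.0%), beside 10.1% of protein-coding genes. The list was drawn up with earlier counts from these lists known, so this share is a description. The median percentile of their best regions was 85.5 in replicate 1 and 91.0 in replicate 2, against 70.4 and 77.3 for the 3008 genes of any type with such a region. The strongest were above those of the 3 enzymes. RAB27A, a GTPase that links melanosomes to the transport machinery, had scores of 245.5 and 259.4 in intron 1, 2755 bp from a start. GPR143, a receptor in the melanosome membrane, had scores of 203.5 and 281.4 at 1621 bp upstream. MITF had 168 and 312.7 in an intron, 9984 bp upstream of the nearest annotated start. With 7, it had as many regions within 10 kb as TYR when all starts of a gene are counted together. Around a single RefSeq start, only TYR had 7.

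IRF4, a transcription factor with a role in pigmentation, had scores of 156.6 and 208.6 in an intron 4591 bp from a start. MLANA, a melanosomal protein, had 122 and 255 at 4982 bp. In the order of their rank sums DCT and TYR followed these 5 genes and MC1R, and of the pigment genes TYRP1 also came after SLC45A2, SOX10, TPCN2, RAB38, EDNRB and SLC24A4. The remaining pigment genes with a region were MYO5A, SLC7A11, SLC24A5, GPNMB, MLPH and PMEL. The 12 without one within 10 kb were ASIP, ATP7A, EDN3, KIT, KITLG, LEF1, MFSD12, OCA2, PAX3, POMC, RAB32 and TFAP2A. Some of these had shared regions farther away, 9 at KIT, 6 at LEF1, 5 at OCA2 and 1 each at EDN3, POMC and RAB32.

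As a contrast, 10 enzymes of tyrosine, dopa or dopachrome metabolism outside the tyrosinase family were counted. Several of them act on later products of these compounds. Of these, HGD and FAH, which act in tyrosine breakdown, had a shared region within 10 kb (2 of 10, 20.0%), with 1 region each. The HGD region scored 56.7 in replicate 1 and 98.5 in replicate 2, above the TYRP1 promoter region at 30.0 and 65.7. It was below the promoter regions of TYR and DCT in both replicates. The FAH region was weak, with scores of 3.22 and 6.23. DBH, DDC, DDT, GSTZ1, HPD, MIF, TAT and TH had no shared region within 10 kb. With lists this short the difference between the 2 of 10 and the 10.1% of all genes rests on few genes and was not tested.

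**Figure D5:**
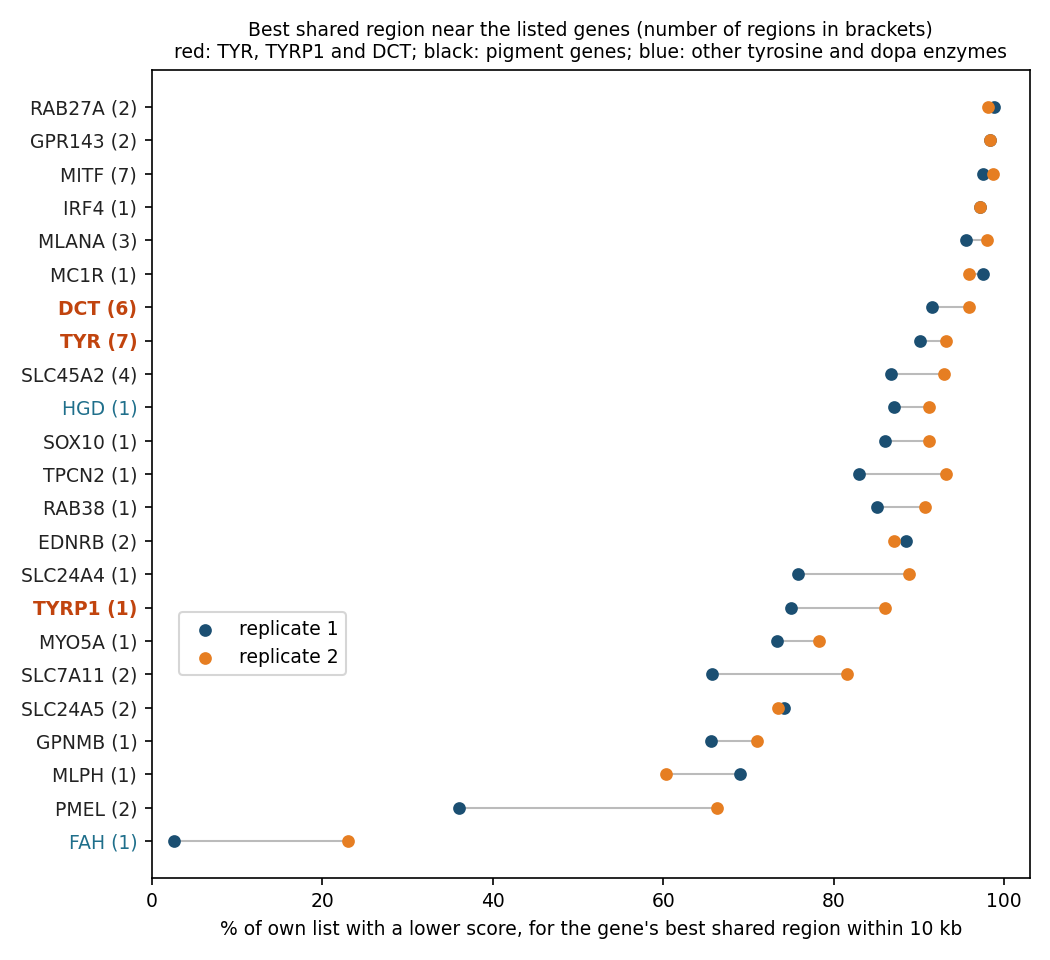
Percentage of the same list with a lower score (x axis) for the best shared region within 10 kb of each listed gene that has one (y axis, number of regions in brackets), in replicate 1 and replicate 2. DCT at 91.5 and 95.8 and TYR at 90.1 and 93.2 rank behind 6 pigment genes, and TYRP1 is lower, at 75.0 and 86.0.

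The genes most like each enzyme were those with as many shared regions within 10 kb and the closest rank sum of the best one, where rank 1 is the highest score and the ranks of the 2 lists are added. DCT, with a rank sum of 4404, was closest to NEDD4L (4607) and SYTL2 (4762), the only other genes with 6 regions. TYR, with 5919, was closest among 4 genes to RNU1-2 (4423), LINC01762 (2734) and TP53TG3B (1524), all of them with stronger best regions. RNU1-2 is a small nuclear RNA gene with many near-identical copies, so its regions are uncertain. TYRP1, with 13563, was closest among 2464 genes to LOC100129697 (13589), LINC01516 (13534) and CCL17 (13594), which with so many genes to choose from is a loose likeness.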

How the data were processed

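ChIP-seq peaks of TBX3-3xHA in 501mel cells were analysed from 2 samples, grouped and numbered by their titles. Per the file headers, the authors annotated the peak summits of each sample separately with annotatePeaks.pl of HOMER on hg38. The submitters' processing notes name FastQC 0.11.7, cutadapt 2.8, Bowtie2 2.3.5, MACS2 2.1.2 and SAMtools 1.9, without roles. The deposited peak score was used only to describe and rank peaks within a list. Its scale, the peak threshold and the control are not given in the sources used here, and read depth is unknown.

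Summits were paired when mutually nearest and within 200 bp (Python 3.11.15, numpy 2.4.6, pandas 2.3.3, scipy 1.17.1). Nearest gene and distance came from the replicate 1 list. Gene identifiers were matched to the RefSeq gene table of GRCh38.p14, with 12420 of 12468 matched, and all 3 genes had promoter windows there. The deposited starts of TYR and TYRP1 differ from RefSeq by a few bases. No genome sequence was used, so sequence at other summits was not examined. Pairing and motif search were tested on simulated data. With a single ChIP condition no test between groups was made.

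Every peak of the 3 genes is given. Of the lists, the 5 genes with the lowest rank sum have values and the others are named. The planned list of other tyrosine and dopa enzymes was longer than the 10 genes counted, and its remaining genes are not reported here. The genes and lists were chosen with earlier results of these data known. The median and Wilson intervals of 95% describe these libraries only. Alternatives were pairing within 50 or 500 bp, scores at or above the median, each replicate alone, 1 or 50 kb from the start, and the replicate 2 annotation.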

Additional observations from a re-analysis of the deposited data

How the results depend on the processing

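No paired analysis was possible because the result comes from no test and there was a single ChIP condition. Of 55 alternatives, 47 stayed within 1.5 times the count or within the interval of the percentage. With peaks at or above the median score, the shared regions fell to 3 for TYR and 4 for DCT, those within 10 kb of the TYR start to 3, the other tyrosine and dopa enzymes with a region to 1, and the replicate 1 share with a partner was 100%; this setting leaves fewer peaks. Pairing within 50 bp gave a share of 68.4%. For neither setting is the share of all replicate 1 peaks given, so neither value compares with the 69.9% at 200 bp. Peaks of a single replicate gave 3 to 8 regions for TYRP1, 8 to 9 for TYR and DCT, and 7 to 8 around the TYR start. Within 1 kb, 0 of the other tyrosine and dopa enzymes were left. All 3 genes kept a shared region near a start under each of these settings, also within 1 kb. With a single replicate this means a peak of that list. The share of all protein-coding genes is given only for the main setting (10.1%), so these counts have no background. The counts around the TYR start and of windows with the 9-letter word, which ran from 6 to 9, were chosen after seeing the data. Without read depth and input, peaks that were not called cannot be taken as absent binding.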
